A study of Mus musculus and Homo sapiens with 15 samples.

Results

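The regions described here are the 2092 edit clusters that were called reproducibly in mouse brain sections treated with buffer only, without antibody and without enzyme. They were selected on the buffer-only libraries' own edited reads, as all entries of the buffer-only confident list, of 11811 clusters in the 3 brain confident lists, of which 5177 belong to RBFOX2-INSCRIBE and 4542 to enzyme-only sections. By their labels, 1234 lie in exons, 855 in introns and 3 in both. INSCRIBE writes C-to-U edits into RNA in fixed tissue: an antibody finds a protein, a nanobody fused to the cytidine deaminase APOBEC1 binds the antibody, and the edits are read by RNA sequencing. RBFOX2-INSCRIBE sections received antibody to RBFOX2 and enzyme, enzyme-only sections received enzyme without primary antibody, and buffer-only sections received neither. All groups were coronal slices, 20 µm thick, of paraformaldehyde-fixed brain from female C57BL/6J mice aged 2 months. There were 3 slices per group, cut from at most 2 mice, so p-values below measure the spread between slices and not between animals.

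A C read as U without added enzyme can arise in several ways in any RNA sequencing experiment. Cells edit a few of their own transcripts, a genome can differ from the reference, a base can differ between near-identical gene copies onto which reads are placed, RNA can carry modified bases, and bases are misread. A deposited site records a C position with at least 1 read showing the change on its strand, and each site carries its number of edited and of covering reads. The edit fraction is the first divided by the second. Clusters were found by the authors with FLARE, a program that looks for windows with more edits than the local background.

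The following sites from members show the kinds of sequence that recurred. Each line gives 29 nt of the GRCm38 genome from RefSeq, 5′ to 3′ on the transcribed strand, with the listed C in a capital. The site of Gm26917 (chr17:39843071-39843099, plus strand) and that of Gm42418 (chr17:39848229-39848257, plus strand) carried the most edited reads of all members. The site of Dlgap1 (chr17:70819500-70819528, plus strand, UTR) and that of Adcy3 (chr12:4134410-4134438, plus strand, coding sequence) read as U in a large share of reads in all 9 libraries. The genotype of the mice at these positions was not tested, so an edit fraction here is the share of reads with U, whatever its origin. Each of these 4 was unique in the assembled GRCm38 chromosomes over the 31 nt around it. Copies that the assembly lacks were not counted, and the Gm26917 and Gm42418 sites lie over a ribosomal RNA repeat.
Gm26917: gcgaatggcggctgCtcttctcgttctgc
Gm42418: tggctcgctctcccCgtcttgtgtgtgtc
Dlgap1: ggcggcagggcaggCggcattcataaacg
Adcy3: gaccgcggggtcggCcggacccatgaaat

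The next pairs show a member site above a second genomic place that matches it except for a C-to-T difference at the capital letter. They are printed because the reference genome itself holds both letters. The Snhg14 site (chr7:59447558-59447586, minus strand) stood at 10 places in the genome over 31 nt, and its T version at 2. The T copy shown lies in the same gene (chr7:59460861-59460889, minus strand). The Gm14327 site (chr2:177899054-177899082, plus strand) stood at 14 places and its T version at 7, of which the copy shown lies in Gm14322 (chr2:177761326-177761354, plus strand).
Snhg14: acatttcgtcccagCaatcactctccagt
Snhg14 T copy: acatttcgtcccagTaatcactctccagt
Gm14327: taagaaatttttccCaattaatattttag
Gm14327 T copy: taagaaatttttccTaattaatattttag

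The deposited list could be rebuilt exactly. It is the set of buffer-only replicate 3 clusters that overlap, by 1 nt or more on the same strand, a replicate 1 cluster which itself overlaps a replicate 2 cluster. This gave 2092 clusters, 1.5% of the 139884 clusters of replicate 3. The last step does not ask that a member overlap replicate 2 itself, and 355 members (17%) did not. Members were short, with a median of 45 nt and a range of 22 to 345 nt, and 78.0% were exactly 45 nt long.

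By the mean depth that FLARE gave, members were close to other clusters of the same library, and their edits were few. The mean read depth over a member in buffer-only replicate 3, as FLARE gave it, had a median of 48.2 (4.22 to 7646), against 53.0 over the 137792 other clusters of that library. Exon members had a median depth of 38.2 and intron members 112.8. The order turned round when depth was read at the listed sites themselves, where the median cover was 35.5 in exon members and 25 in intron members. The cover at a site was 0.969 of the cluster's depth in exons and 0.220 of it in introns, as medians. FLARE depth in introns is therefore not the number of reads over the edited base. At filtered sites of buffer-only replicate 3 the median cover was 33 inside members and 16 elsewhere. Members alike to others in FLARE depth were thus not alike in cover.

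Summed over the 3 buffer-only libraries, a member held a median of 3 edited reads (1 to 22085) at sites that passed the study's filter (score over 0.5, fraction under 0.8). There were 762 members (36.4%) with 1 to 2 such reads and 575 with 3. All 9 libraries together listed 7553 filtered sites inside members. Only 311 of them, in 247 members, were listed in all 3 buffer-only libraries, whereas 4072 were listed in 1 buffer-only library and in none of the 6 libraries with enzyme. Most members were thus overlapping windows without a base that was listed in every replicate. These counts chose the members and are given as a description.

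By GENCODE annotation, 631 members (30.2%) lay in coding sequence, 470 (22.5%) in UTRs, 860 (41.1%) in introns and 131 (6.26%) in exons of non-coding transcripts. The host gene, taken as the longest gene in a member's label, was protein coding for 1939 members (92.7%). For 531 members the label named more than 1 gene, and 138 members also overlapped a gene on the other strand. Host genes numbered 1468. Of these, 1175 hosted 1 member, 192 hosted 2, and 101 hosted 3 or more, which together held 533 members.

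The 6 libraries that received enzyme were not used to choose the members, and they show what the same regions do elsewhere. A member was taken as recovered where a cluster of the library overlapped it by 1 nt or more on the same strand. RBFOX2-INSCRIBE replicates 1 to 3 recovered 622, 618 and 589 members, and enzyme-only replicates 1 to 3 recovered 645, 638 and 613. Recovery was 29.1% ± 0.861 in RBFOX2-INSCRIBE and 30.2% ± 0.804 in enzyme-only (SD, n = 3 each). The difference of -1.07 points had an exact two-sided permutation p of 0.3, where 3 against 3 libraries cannot go below 0.1, and 0.533 after adjustment over the 4 measures compared between these groups.

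Members were recovered more often than the other clusters of buffer-only replicate 3. The mean over the 6 libraries was 29.7% of members and 10.7% of the other clusters. The difference was 18.96 points (SD 0.853) and lay between 17.7 and 20.1 points in all 6 libraries, with p = 0.03125 by an exact sign-flip test, the smallest that 6 libraries allow. This comparison was added after seeing the data. Members were kept for recurring between buffer-only libraries, and the other clusters failed that rule. The rule thus favoured a higher recovery of members in advance, and the p-value gives no independent support for it. With the other clusters weighted to the FLARE depth of the members the difference was 18.8 points. Members were recovered at 29.8%, 28.1%, 30.4% and 37.6% in FLARE depth classes below 30, from 30, from 100 and from 300, against 9.26%, 11.8%, 9.74% and 11.7% for the other clusters. The gap was present in every class, and members of the deepest class came back most often. FLARE depth is not the cover at the sites, so neither comparison matches the clusters for cover.

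**Figure D1:**
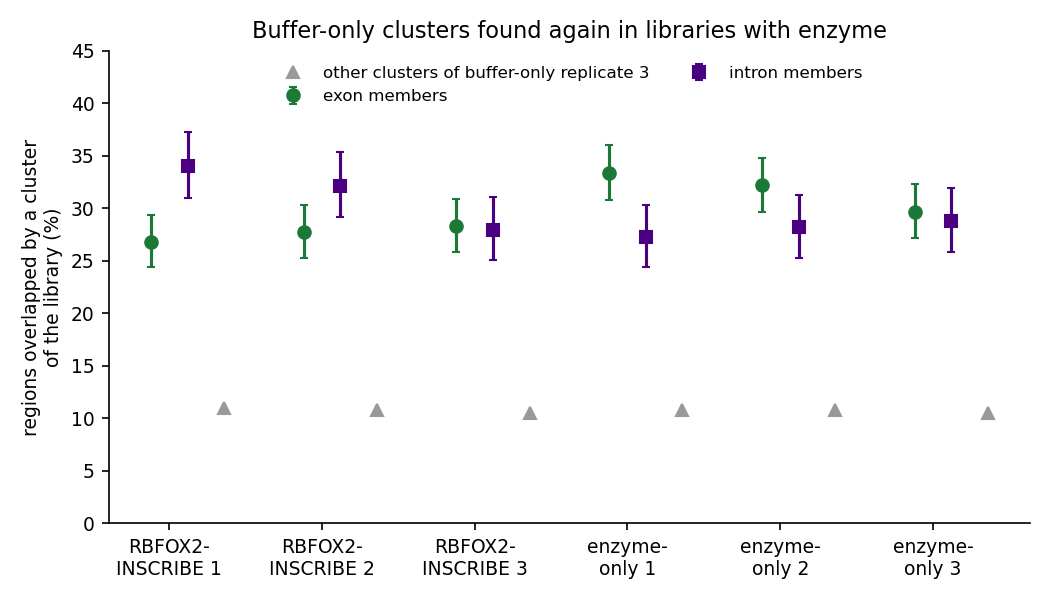
Share of buffer-only confident clusters overlapped by a cluster of each library with enzyme (%), for exon members (circles) and intron members (squares) with Wilson 95% intervals, which cover counting error only, and for the other clusters of buffer-only replicate 3 (triangles). Members lie between 26.8% and 34.0% in all 6 libraries and the other clusters near 10.7%.

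Mean recovery over the 6 libraries was 29.67% for exon members and 29.73% for intron members (exact sign-flip p = 0.969), but the order of the 2 kinds changed between libraries. Exon members were recovered at 26.8%, 27.7% and 28.3% and intron members at 34.0%, 32.2% and 28% in RBFOX2-INSCRIBE replicates 1 to 3. In enzyme-only replicates 1 to 3, exon members were recovered at 33.4%, 32.2% and 29.7% and intron members at 27.3%, 28.2% and 28.8%. Exon minus intron recovery was therefore -7.21, -4.45 and 0.33 points with antibody and 6.14, 3.98 and 0.89 points without it. The groups did not overlap, their means differed by -7.45 points, and the exact two-sided permutation p was 0.1, the smallest possible. The comparison was chosen after seeing the data, and replicate 3 of both groups lay close to 0. The same contrast is not given for the other clusters, so it is not shown to be particular to members. In the confident lists, 2366 of 5177 clusters lay in introns for RBFOX2-INSCRIBE and 1208 of 4542 for enzyme-only.

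Recovery was uneven across members. Of the 2092, 544 (26.0%) overlapped a cluster in none of the 6 libraries, 588 in 1, 452 in 2, 199 in 3, 78 in 4, 62 in 5 and 169 (8.08%) in all 6. Members in 0 to 2 libraries made up 75.7%. Among the other clusters of buffer-only replicate 3, 57.0% were in none of the 6 and 50 (0.0363%) in all 6. From 1 library on, the counts for members fell up to 5 libraries and turned up at 6, so the list holds a large set that rarely came back and a small set that always did.

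**Figure D2:**
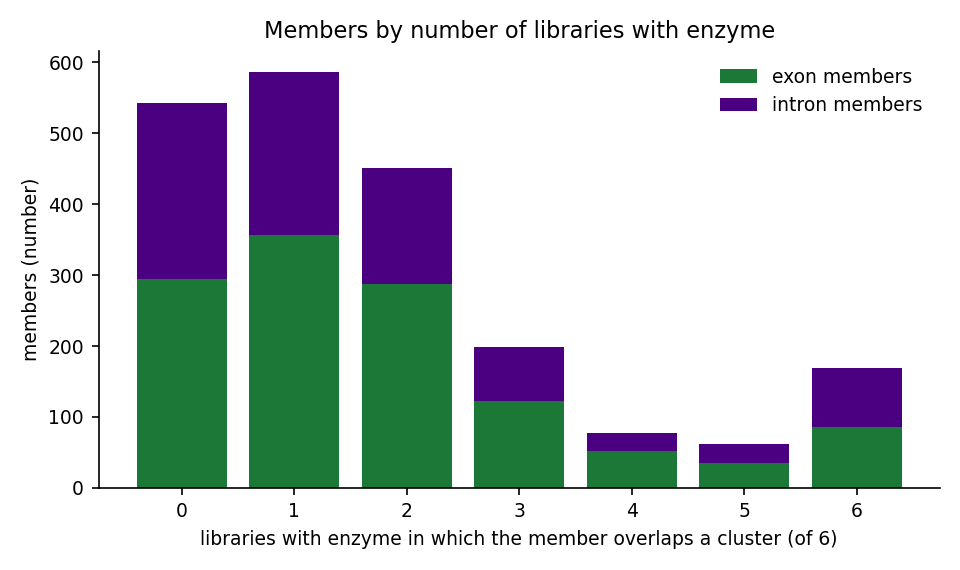
Number of members (vertical axis) by the number of libraries with enzyme, of 6, in which the member overlaps a cluster, with exon members (green) below intron members (purple). The 3 members with both labels are left out. From 1 library on, the bars fall up to 5 libraries and rise again at 6, where 86 exon and 83 intron members stand.

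The number of edited reads in the buffer-only libraries ordered these outcomes. All 6 libraries recovered 1 of the 762 members with 1 to 2 edited reads, 0 of 575 with 3, and 6 of 427 with 4 to 5. The count was 30 of 163 (18.4%) with 6 to 10 edited reads, 58 of 88 (65.9%) with 11 to 30, and 74 of 77 (96.1%) above 30. Of the members with over 30 edited reads, each was recovered in at least 1 library. In all, 718 members (34.3%) had 0 filtered edited reads in the 6 libraries. This says that their sites were not listed, and a site without an edited read has no recorded cover.

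The 3 members in none of the 6 libraries with the most buffer-only reads were led by an intron member of Opcml, which encodes a neuronal cell adhesion molecule. It had 2, 5 and 6 edited reads in buffer-only replicates 1 to 3, with fractions of 33.3%, 50% and 20.7%. Iqsec3, an exchange factor for ARF proteins at inhibitory synapses, had a UTR member with 2, 2 and 4 edited reads at fractions of 1.32%, 1.63% and 1.95%. Adgrb2, an adhesion G protein-coupled receptor, had a member across an exon and an intron with 1, 0 and 6. Against 6329 or more edited reads per library in the leading member, these are small counts.

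Confident lists of the other groups shared few of the regions. Members overlapping the RBFOX2-INSCRIBE confident list numbered 230 (11%), and 226 clusters of that list (4.37%) were involved. For the enzyme-only list the numbers were 223 members (10.7%) and 225 clusters (4.95%). Both lists held 165 members (7.89%). The authors removed background clusters to make cleaned lists of 5031 and 4401 clusters, yet 56 cleaned RBFOX2-INSCRIBE clusters still overlapped 62 members and 61 cleaned enzyme-only clusters overlapped 63.

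Edited reads were concentrated in very few members. Members held 6.54% to 7.89% of all filtered edited reads in RBFOX2-INSCRIBE libraries, 7.34% to 7.80% in enzyme-only libraries and 9.998% to 11.2% in buffer-only libraries. The 10 leading members held 87.3% of the members' edited reads in the 6 libraries with enzyme, and the 100 leading members 96.2%. A single locus accounted for most of them. Gm26917 and Gm42418 are annotated as long non-coding RNAs but lie over a ribosomal RNA repeat on chromosome 17, and their 8 members held 78.1% to 79.6% of the members' edited reads in RBFOX2-INSCRIBE libraries, 78.7% to 79.96% in enzyme-only libraries and 70.3% to 76.1% in buffer-only libraries. The RNA had been depleted of ribosomal RNA, and reads that map to repeats had been removed by the authors before alignment.

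Total editing in members did not separate sections with and without antibody. Scaled to the filtered edited reads of each library as CPM, members received 71234 CPM with antibody and enzyme and 76148 CPM with enzyme alone, a difference of -4915 CPM (exact permutation p = 0.4, adjusted 0.533, n = 3 each). The pooled edit fraction was 7.96% ± 0.14 in RBFOX2-INSCRIBE libraries and 8.10% ± 0.0335 in enzyme-only libraries (SD, n = 3 each), a difference of -0.133 points (exact permutation p = 0.2, adjusted 0.533). In buffer-only libraries, which chose the members, it was 7.29% ± 0.239. Without the ribosomal RNA locus the fractions were 4.32% in RBFOX2-INSCRIBE, 4.24% in enzyme-only and 3.90% in buffer-only libraries, so that the sign of the difference with antibody turned. The share of sites with A or U before the C, the base APOBEC1 prefers there, was 54.3% in RBFOX2-INSCRIBE and 55.1% in enzyme-only (difference -0.771, exact permutation p = 0.9, adjusted 0.9). The sign of this difference turned without enzyme-only replicate 3, to 0.645 points.

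Member sites differed from the other sites of the same libraries in several ways, each in 6 of 6 libraries (exact sign-flip p = 0.03125 for each, adjusted 0.03125 over 5 measures). As means of the 6 libraries, median cover was 40.75 reads at member sites and 16.5 at other sites, and 38.9% against 10.7% of sites had 2 or more edited reads. Members were kept for calls that recurred between buffer-only libraries, and in buffer-only replicate 3 their median cover was already 33 against 16. The rule thus favoured higher cover and repeated edits in advance, and the p-values for these measures give no independent support. A or U stood before the C at 54.7% of member sites and at 63.2% of the others, a difference of -8.48 points (SD 2.16). A G followed the C at 10.8% of member sites and at 6.21% of the others. The pooled edit fraction was 8.03% in members and 4.28% elsewhere, but without the ribosomal RNA locus the difference was 0.0016 points (exact sign-flip p = 0.969). With every listed site in place of the filtered ones, the difference in median cover was -12.7 reads.

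In buffer-only libraries, 48.8% ± 1.24 of member sites had A or U before the C (SD, n = 3), and 51.8% to 52.5% of their other sites did. Other sites of the libraries with enzyme had it in 61.0% to 65.9%. Member sites in the libraries with enzyme, at 53.4% to 57.9%, lay between these ranges.

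Exon and intron members were also compared within each of the 6 libraries. Median cover was 47.8 reads at exon sites and 28.7 at intron sites, and a G followed the C at 13.2% against 7.09%. A or U preceded the C at 52.6% of exon sites and 57.9% of intron sites, and 37.0% against 41.9% had 2 or more edited reads. Each difference had one sign in 6 of 6 libraries (exact sign-flip p = 0.03125, adjusted 0.046875 over 6 measures), and with every listed site kept the last of them turned to 2.05 points. At 20 or more covering reads it was -2.54 points and no longer called (exact sign-flip p = 0.1875). The pooled fraction was 8.004% in exons and 8.70% in introns (exact sign-flip p = 0.09375, adjusted 0.1125). Without the ribosomal RNA locus, which is exonic, exons lay 4.95 points below introns (exact sign-flip p = 0.03125).

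Sites that recurred had other sequence surroundings than sites that did not. Of the 7553 sites, 4378 were listed in none of the 6 libraries with enzyme, 2744 in 1 to 2, 247 in 3 to 5 and 184 in all 6. The 31 nt around a site occurred at more than 1 place in the genome for 8.59% of sites in none, 24.5% in 1 to 2, 68.8% in 3 to 5 and 62.5% in all 6. A copy with a C-to-T difference at the site existed for 2.15%, 4.56%, 22.7% and 22.3% of these classes. A or U stood before the C in 46.0%, 52.3%, 59.5% and 57.1%, and a G followed it in 8.15%, 8.13%, 8.50% and 19.0%. In confident regions without a member, 6.24% of 33538 sites were multicopy, 1.40% had a copy with T, and A or U preceded 65.6%. The 28 of these that were listed in all 6 libraries were multicopy in 28.6%, had a T copy in 10.7%, A or U before the C in 50% and a G after it in 14.3%. Multicopy windows and T copies were therefore several times as frequent at the most recurrent member sites as at those in none of the libraries, and what part they have in the calls was not tested.

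**Figure D3:**
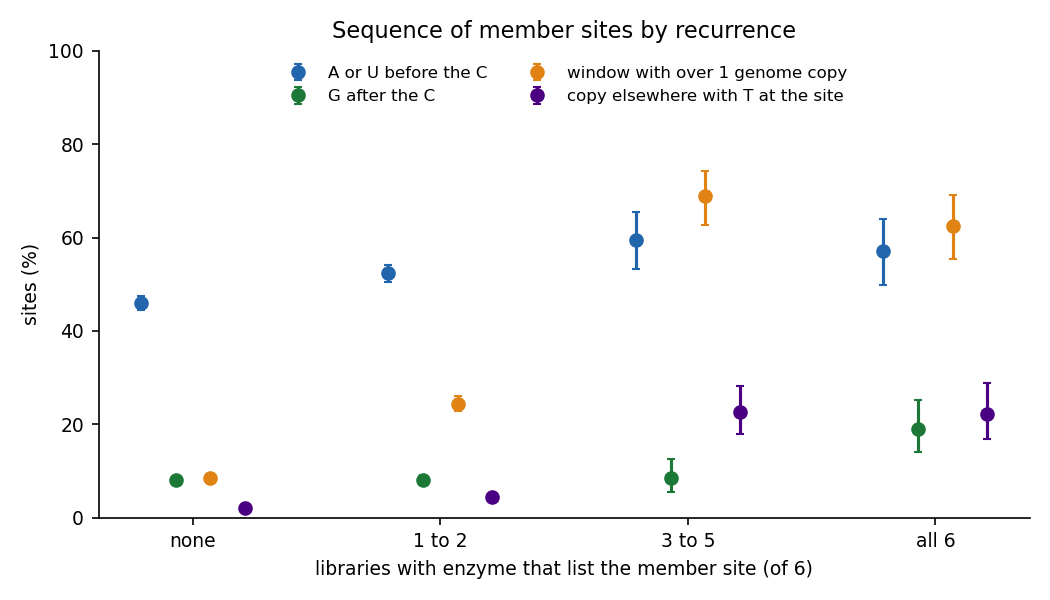
Share of member sites (%, with Wilson 95% intervals for counting error) that have A or U before the C, a G after it, a 31-nt window with more than 1 genome copy, or a copy with T at the site, by the number of libraries with enzyme, of 6, that list the site. Multicopy windows make up 62.5% of the sites in all 6 and 8.59% of those in none.

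Of the 184 sites in all 6 libraries, 168 in 126 members were listed in all 9, buffer-only included. Differences between treatments went both ways among them. The median over these sites was -0.07 points for RBFOX2-INSCRIBE minus enzyme-only (interquartile range -2.41 to 2.268), 0.05 points for RBFOX2-INSCRIBE minus buffer-only and 0.11 points for enzyme-only minus buffer-only. How many of the 168 had groups without overlap is not given, so a lack of overlap at a site named below is a description only. The level of the sites was broad. Of the 184, 47 had a mean fraction below 0.05, 41 between 0.05 and 0.1, 44 between 0.1 and 0.25, 36 between 0.25 and 0.5, and 16 from 0.5 to 0.8. Genes with the most sites in all 9 libraries were Nova1 with 15, Rn7s2 with 13, Hjurp and 6820431F20Rik with 11 each, and Snhg14 and 2610005L07Rik with 10 each.

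The 169 members in all 6 libraries belonged to 94 host genes, and 98 of them lay in 23 genes that held more than 1. They differed from the list as a whole in the type of gene. Of the 169, 73 (43.2%) lay in pseudogenes, long non-coding RNAs and other genes not typed protein coding, against 153 of 2092 (7.31%) in the whole list. A block of 51 members in 10 host genes lay on chromosome 8 between positions 19682549 and 20628611, and 34 of the 51 were in all 6 libraries.

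The leading member was at the ribosomal RNA locus. Gm26917 had 7615, 8792 and 7179 edited reads in RBFOX2-INSCRIBE replicates 1 to 3, 7404, 7899 and 6756 in enzyme-only and 8284, 7472 and 6329 in buffer-only replicates. All of these reads came from the C shown above, whose edit fraction was 68.4%, 69.2% and 68.7% in RBFOX2-INSCRIBE, 69.3%, 69.2% and 68.9% in enzyme-only and 70.1%, 69.0% and 69.6% in buffer-only libraries. The 9 values thus lay between 68.4% and 70.1%, at 9090 or more covering reads each. The 13 other listed sites of the member reached at most 0.0516% when the 9 libraries were pooled. For RBFOX2-INSCRIBE against enzyme-only, edgeR gave a log2 fold change of -0.05 ± 0.05 (SE), adjusted p = 0.652.

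Gm42418 behaved alike at another position of the repeat. Its fraction was 62.2%, 64.1% and 63.3% in RBFOX2-INSCRIBE, 63.2%, 63.4% and 63.3% in enzyme-only and 63.6%, 63.3% and 65.0% in buffer-only libraries, and its 16 other listed sites stayed at or below 0.123% with the 9 libraries pooled. Another Gm26917 site (chr17:39843289) read as U in 386822 of 387006 reads over the 9 libraries, or 99.95%, and is removed by the filter on fractions of 0.8 or more. There were 12 member sites at such a fraction in 1 library or more, and it was the only one in all 9. Isolated positions with a fixed fraction, among neighbours near 0, were thus seen in the leading Gm26917 member and in the Gm42418 member. In the other Gm26917 members, filtered sites listed in all 9 libraries had lower mean fractions, between 1.49% and 5.50%. The neighbours of those sites are not given here.

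Rn7s2 encodes 7SL, the RNA of the signal recognition particle, and its member showed another pattern. It spread over many sites, and 13 of them were listed after filtering in all 9 libraries. The 31 nt around these 13 sites stood at 2 to 7 places in the genome, and the label also names Gm47299 and Gm47305. The gene named is thus uncertain. Edited reads were 1728, 2323 and 1536 in RBFOX2-INSCRIBE slices, 1619, 1644 and 1489 in enzyme-only and 2046, 1550 and 1434 in buffer-only replicates. The pooled fraction of the member was 2.95%, 3.19% and 3.04%, then 3.10%, 2.72% and 2.97%, then 2.92%, 2.96% and 3.00% in the same order. Groups overlapped, and the fold change of RBFOX2-INSCRIBE over enzyme-only was 0.07 ± 0.06 on the log2 scale (SE, edgeR adjusted p = 0.569).

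Snhg14 is a long nuclear transcript that hosts arrays of small nucleolar RNAs and runs antisense to Ube3a in neurons. It hosted the most members, 20 (8 exon, 12 intron), of which 11 were in all 6 libraries and 1 in none. Of its 40 sites, 32 were multicopy and 11 had a T copy. The leading member had 138, 161 and 113 edited reads in RBFOX2-INSCRIBE slices, 138, 114 and 109 in enzyme-only and 171, 137 and 99 in buffer-only replicates. Its main site, shown above with its T copy, had fractions of 7.995%, 7.93% and 7.80%, then 8.60%, 7.30% and 7.96%, then 7.83%, 8.28% and 6.54% in the same order. Groups overlapped here as well (log2 fold change 0.03 ± 0.13 SE, edgeR adjusted p = 0.963).

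Pseudogenes and repeated gene families gave further recurrent members. Pisd-ps1, a transcribed pseudogene of a phosphatidylserine decarboxylase, had a fraction of 19.97%, 19.9% and 21.5% in RBFOX2-INSCRIBE, 17.7%, 19.5% and 18.3% in enzyme-only and 18.7%, 17.9% and 21.4% in buffer-only libraries. RBFOX2-INSCRIBE lay above enzyme-only in every slice, and the edited reads did not pass the test (log2 fold change 0.22 ± 0.11 SE, edgeR adjusted p = 0.289). On chromosome 8, 9 of 14 members of 6820431F20Rik, 9 of 11 of 2610005L07Rik and 6 of 9 of Gm21092 were in all 6 libraries. Multicopy windows made up 26 of 27, 36 of 37 and 16 of 17 of their sites. Reads of such families can be shared among copies by the aligner, so the gene named is uncertain.

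Gm14327 and Gm14399 lie in repeated stretches of chromosome 2. The Gm14327 site printed above had 37.9%, 42.9% and 58.3% in RBFOX2-INSCRIBE, 72.2%, 64.3% and 60% in enzyme-only and 62.2%, 56.0% and 57.1% in buffer-only libraries, at 18 to 37 covering reads each. RBFOX2-INSCRIBE lay below enzyme-only in every replicate of this site, at a depth where counting error alone is wide. The Gm14399 member held 8, 14 and 13 edited reads in RBFOX2-INSCRIBE slices, 7, 6 and 3 in enzyme-only and 10, 10 and 10 in buffer-only replicates. It rests on fewer reads still.

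Some recurrent members lay in windows that were unique in the assembled GRCm38 chromosomes. Hjurp, the chaperone that loads the centromeric histone, hosted 11 members, 10 of them in all 6 libraries, and none of its 31 sites was multicopy. Its leading UTR member had 52, 80 and 46 edited reads in RBFOX2-INSCRIBE slices, 45, 50 and 43 in enzyme-only and 57, 66 and 39 in buffer-only replicates. The main site had fractions of 66.7%, 62.7% and 62.2%, then 56.4%, 59.1% and 46.3%, then 56.1%, 63.3% and 67.6% in the same order. An intron member had 59.1%, 57.7% and 69.2% in RBFOX2-INSCRIBE, 75%, 54.2% and 59.1% in enzyme-only and 63.0%, 42.3% and 72.7% in buffer-only libraries. At the main site RBFOX2-INSCRIBE lay above enzyme-only in every slice, and in the intron the groups overlapped. They also overlapped at another site of the UTR member (chr1:88264978). It had 55.6%, 43.1% and 62.5% in RBFOX2-INSCRIBE and 60.6%, 58.3% and 45.9% in enzyme-only libraries.

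Dlgap1, a postsynaptic scaffold protein, had 104, 124 and 75 edited reads in RBFOX2-INSCRIBE slices, 112, 132 and 89 in enzyme-only and 158, 129 and 84 in buffer-only replicates. Its UTR site had fractions of 52.0%, 53.2% and 46.0%, then 53.8%, 54.8% and 55.6%, then 54.7%, 58.6% and 58.3% in the same order. The RBFOX2-INSCRIBE values lay below all others, and the fold change in edited reads against enzyme-only was -0.29 ± 0.15 on the log2 scale (SE, edgeR adjusted p = 0.289). Adcy3, an adenylyl cyclase of neuronal cilia, had 38.8%, 44.2% and 40.0% in RBFOX2-INSCRIBE, 42.6%, 43.2% and 34.2% in enzyme-only and 42.5%, 45.4% and 47.3% in buffer-only libraries. Its groups with enzyme overlapped, and the log2 fold change was 0.00 ± 0.21 (SE, edgeR adjusted p = 0.999).

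**Figure D4:**
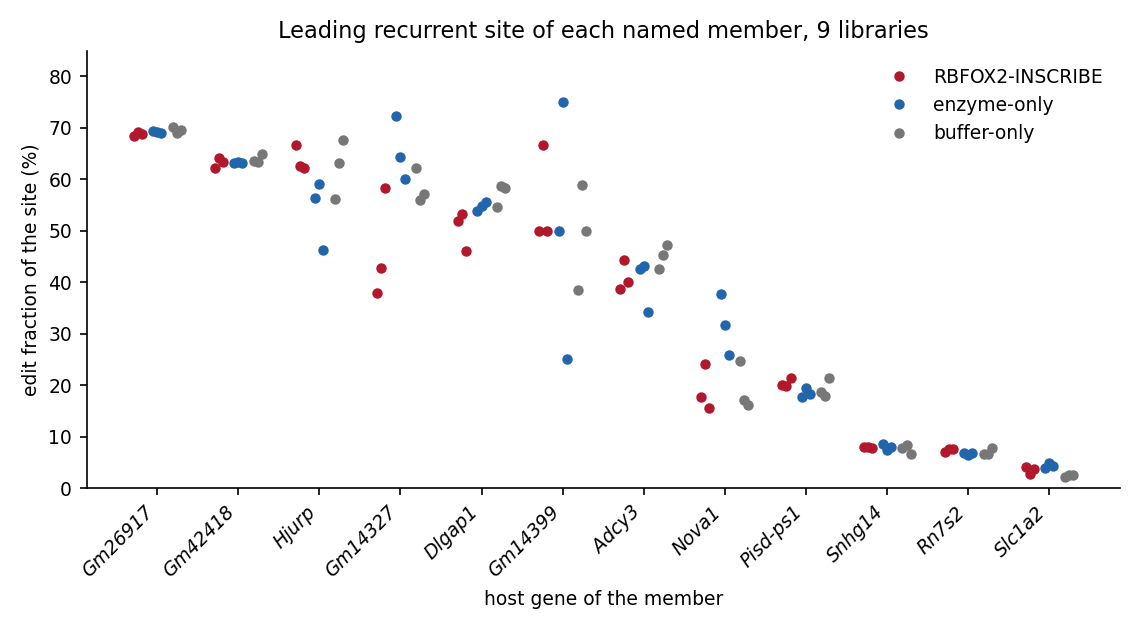
Edit fraction (%) of the filtered site with the most edited reads in each named member that was recovered by all libraries, in RBFOX2-INSCRIBE (red), enzyme-only (blue) and buffer-only (grey), 1 point per library. Sites of Gm26917 and Gm42418 keep 1 level in all 9 libraries, whereas the Slc1a2 site is lowest in the 3 buffer-only libraries.

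Slc1a2, the main glutamate transporter of astrocytes, differed from the members above. Its leading UTR member had 80, 38 and 63 edited reads in RBFOX2-INSCRIBE slices, 48, 65 and 50 in enzyme-only and 32, 34 and 24 in buffer-only replicates. The main site had fractions of 4.07%, 2.77% and 3.78% in RBFOX2-INSCRIBE, 3.94%, 4.87% and 4.26% in enzyme-only and 2.10%, 2.62% and 2.5% in buffer-only libraries. Every library with enzyme exceeded every buffer-only library, and the 2 groups with enzyme overlapped (log2 fold change 0.04 ± 0.32 SE, edgeR adjusted p = 0.999). Of its 24 sites, 19 (79.2%) had A or U before the C and none was multicopy. The neuronal splicing regulator Nova1 hosted 3 neighbouring intron members, all in all 6 libraries, in which 49 of 51 sites (96.1%) had A or U before the C and 49 were multicopy. Its leading member had 43, 66 and 50 edited reads in RBFOX2-INSCRIBE slices, 64, 61 and 38 in enzyme-only and 86, 39 and 44 in buffer-only replicates, and these counts overlapped. The member's pooled fractions in the groups with enzyme overlapped too (4.65% to 6.16% against 5.60% to 8.99%). At its site with the most edited reads (chr12:46707891) they did not overlap. RBFOX2-INSCRIBE had 17.6%, 24.1% and 15.6% there, enzyme-only 37.8%, 31.7% and 25.8%, and buffer-only 24.6%, 17.1% and 16.1%.

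Rgs5, a regulator of G protein signalling found in pericytes, hosted 13 members in its UTR. Of the 13, 7 were in all 6 libraries and each was recovered at least once. Among its 122 sites, 106 (86.9%) had A or U before the C and 0 were multicopy, against 49.0% and 17.6% over all member sites. Edited reads of its leading member were 37, 58 and 33 in RBFOX2-INSCRIBE, 34, 38 and 28 in enzyme-only and 21, 20 and 25 in buffer-only replicates. All libraries with enzyme had more of these reads than the buffer-only ones, which held fewer edited reads in total (193252 to 262593, against 267277 to 339567 with enzyme). The region holding it had a log2 fold change of 0.16 ± 0.20 between the groups with enzyme (SE, edgeR adjusted p = 0.738).

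The other leading host genes were long neuronal genes with members mostly in introns. Celf2, which encodes an RNA-binding splicing regulator, hosted 19 members (18 intron), Kcnip4, an auxiliary subunit of A-type potassium channels, 18, Dpp10, another subunit of these channels, 14, and Phactr1, a regulator of actin and protein phosphatase 1, 13. Over all pairs of a member and a library with enzyme, 27.2% were recovered in Celf2, 36.1% in Kcnip4, 19.0% in Dpp10 and 28.2% in Phactr1, against 29.7% over all members. In all 6 libraries were 1 of 19 (5.26%), 1 of 18 (5.56%), 0 and 0, against 8.08% of all members. Opcml came back least among the 10 genes with the most members, in 11.1% of pairs, with 8 of its 12 members in none of the 6 libraries. The FLARE depth of the 12 members in buffer-only replicate 3 lay between 144 and 230. In intron members the cover at listed sites was 0.220 of that depth in the median, so it does not give the reads over the sites. The 12 members held 8 edited reads in the 6 libraries with enzyme together and 42 in the 3 buffer-only libraries.

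RBFOX genes themselves hosted members. Rbfox1, which encodes a neuronal splicing factor of the same family as the antibody's target, hosted 14 intron members, Rbfox3, the gene of the neuronal marker NeuN, hosted 4, and Rbfox2 hosted 1. None of the 19 was in all 6 libraries and 7 were in none. Members of Rbfox1 held 5 edited reads in the 3 RBFOX2-INSCRIBE libraries, 8 in enzyme-only and 37 in buffer-only libraries. Over the whole gene, Rbfox1 had 1836, 1805 and 1688 edited reads in RBFOX2-INSCRIBE replicates and 1185, 1381 and 1257 in enzyme-only replicates (log2 fold change 0.31 ± 0.09 SE, edgeR adjusted p = 0.0779). Rbfox2 had 0.48 ± 0.14 (adjusted p = 0.0587) and Rbfox3 0.37 ± 0.13 (adjusted p = 0.136) by the same edgeR test. The unscaled counts of the groups did not overlap for any of the 3 genes, but none passed the threshold of 0.05. All filtered edited reads of a library also numbered 295672 to 339567 in RBFOX2-INSCRIBE and 267277 to 290808 in enzyme-only. The share of all tested genes without overlap is not given here.

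Lists of genes differed widely in how many hosted a member. Of all 15430 genes with a filtered site in the brain libraries, 9.31% did. Among 28 postsynaptic and receptor genes 20 (71.4%) did, with Grin2b, an NMDA receptor subunit, hosting 6 members and Dlg2, a scaffold protein, 5. Among 26 presynaptic genes 14 (53.8%) did, with Nrxn3, a presynaptic adhesion protein, at 9 members. Of 26 voltage-gated channel genes 14 (53.8%) did, of 30 cell adhesion genes with long introns 17 (56.7%), of 21 calcium signalling genes 9 (42.9%), of 16 cytoskeletal genes 7 and of 34 splicing regulators 8 (23.5%). These lists shared genes, and their members were mostly intronic.

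Several other lists had few hosts or none. None of 29 genes of cytosolic ribosomal proteins with sites hosted a member. Among cell type markers with sites, hosts were 4 of 7 for neurons, 2 of 6 for excitatory neurons, 2 of 8 for astrocytes and 2 of 9 for microglia. Striatal neurons and oligodendrocytes had 1 of 8 each. Inhibitory neurons and endothelial cells had 0 of 6 each, oligodendrocyte precursors 0 of 5, and choroid plexus with ependyma and blood 0 of 2 each. Lists this short cannot tell 0 hosts from the share over all genes. Known APOBEC1 targets, as a list from other tissues, had 2 hosts of 19 (10.5%), Atf2 with 2 members and Tmbim6 with 1, which is near the 9.31% of all genes. The share of hosts moved with the number of edited reads of a gene in the libraries with enzyme, at 1.07% for 1 to 29 reads, 8.56% from 30, 18.5% from 100, 37.0% from 300 and 75% from 1000. What part this has in the difference between lists was not tested.

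Each region was tested for a difference between RBFOX2-INSCRIBE and enzyme-only in one edgeR fit over the merged regions of all 3 confident lists. Of 11192 regions, 2086 held a member, but only 99 had enough edited reads to be tested, 76 with a member and 23 without. Called at an adjusted p below 0.05 were 15 of the 99 (15.2%), 14 higher in RBFOX2-INSCRIBE (14.1%) and 1 lower (1.01%), and none of the 76 regions with a member was among them. At an unadjusted p below 0.05 there were 4, and DESeq2 called 0. The member regions had a median log2 fold change of 0.00 (interquartile range -0.18 to 0.16) with a median SE of 0.30, against 0.04 over all regions tested. Libraries were scaled to the tested regions alone, of which 76 of 99 held a member, so the scaling favoured a member median near 0 in advance. With library sizes from all edited sites the member median was -0.08 (interquartile range -0.26 to 0.09), and no member region was called. The other regions entered the table through the same libraries as the test, so their calls are no comparison for the members.

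**Figure D5:**
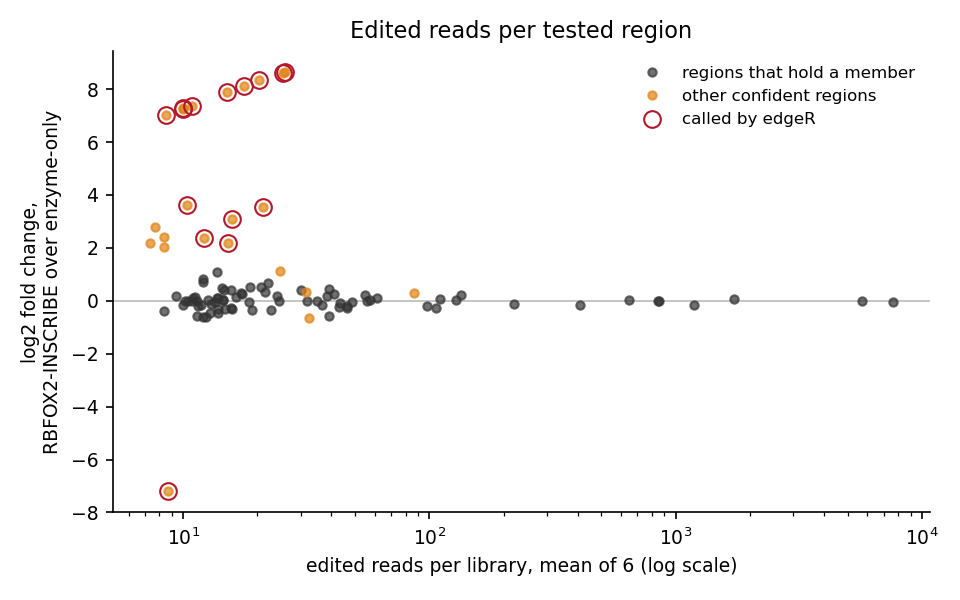
Fitted log2 fold change of edited reads, RBFOX2-INSCRIBE over enzyme-only, against the mean number of edited reads per library (log scale) for 99 tested regions, with regions holding a member in black, other confident regions in orange and called regions circled. Member regions lie around 0, which the scaling to the tested regions favours, and none is circled. In 10 of the 15 called regions 1 group had 0 edited reads in every library, so that their fitted values depend on the prior count and give no size.

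The smallest adjusted p among member regions belonged to Gm26917 at chr17:39843899-39843943, with 404, 458 and 353 edited reads in RBFOX2-INSCRIBE replicates and 415, 457 and 366 in enzyme-only replicates (log2 fold change -0.17 ± 0.05 SE, edgeR adjusted p = 0.0572). Tubb2a, a neuronal beta-tubulin, had 34, 33 and 32 in RBFOX2-INSCRIBE and 45, 48 and 42 in enzyme-only replicates (-0.58 ± 0.19, edgeR adjusted p = 0.0844). Its groups did not overlap, and the share of all tested regions without overlap is not given here. With every listed site kept, 34 of 123 regions were called (27.6%) and 9 were lower (7.32%). Of these, 8 were member regions, all lower in RBFOX2-INSCRIBE, of which 5 were at the ribosomal RNA locus and others in Tubb2a and Dlgap1. Their log2 fold changes lay between -0.75 and -0.18, where the median of all member regions was -0.19. Without enzyme-only replicate 3, 21 of 135 regions (15.6%) and 1 member region were called, in Gm26917 (-0.13, edgeR adjusted p = 0.0161).

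Over whole genes, 66 of 6009 were called (1.1%), 61 higher (1.02%) and 5 lower (0.0832%) in RBFOX2-INSCRIBE. Of 1190 host genes tested, 14 (1.18%) were called, 13 higher and 1 lower, which in this main edgeR fit is near the share over all genes. The imprinted long non-coding RNA Meg3 led with 224, 118 and 154 edited reads in RBFOX2-INSCRIBE replicates and 18, 28 and 35 in enzyme-only replicates (log2 fold change 2.44 ± 0.20 SE, edgeR adjusted p = 5.2897e-16). Its member held 2 edited reads in RBFOX2-INSCRIBE slices, 0 in enzyme-only and 3 in buffer-only libraries. The gene rose, but its reads were elsewhere than in the member.

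The same held for the other called hosts. Chn1, a brain GTPase-activating protein for Rac, rose by 1.30 (edgeR adjusted p = 9.3415e-07), Pde10a, a phosphodiesterase of striatal neurons, by 0.85 (2.1384e-06), Ppp3ca, the catalytic subunit of calcineurin, by 0.81 (3.9622e-06) and Ryr3, a calcium release channel, by 0.86 (3.6551e-04). The 14 called hosts together had 7362 edited reads over the RBFOX2-INSCRIBE libraries and 3703 over the enzyme-only libraries, and their 22 members held 48 and 33 of these. Leaving out Slc6a17, a vesicular amino acid transporter whose member was in all 6 libraries, the members held 25 and 15. Members in the called genes thus contributed little to the calls. Without enzyme-only replicate 1, 30 genes (0.46%) were called, 8 of them hosts (0.652%). DESeq2 called 34 genes (0.566%), 17 of them hosts (1.43%). With every listed site, edgeR called 165 of 7397 genes and 50 of 1268 hosts (3.94%). With a replicate block it called 109 of 6009 genes and 33 of 1190 hosts (2.77%). The share among hosts was thus near that of all genes in the main edgeR fit, but not with DESeq2, every listed site or a replicate block.

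The motif UGCAUG, bound by RBFOX proteins, was counted on the transcribed strand in the 301 nt centred on each cluster. It stood in 9.08% of members (Wilson 95% interval 7.92 to 10.4), 23.5% of RBFOX2-INSCRIBE confident clusters and 10.04% of enzyme-only confident clusters. Within the clusters themselves the shares were 1.10%, 8.09% and 1.96%. Exon members had it in 8.75% and intron members in 9.59% of windows. Members were thus near the enzyme-only clusters in this respect and below the RBFOX2-INSCRIBE clusters. Repeat-masked sequence overlapped 29.97% of members, 34.0% of RBFOX2-INSCRIBE and 28.3% of enzyme-only clusters, and 17.9%, 11.7% and 17.7% lay within 50 nt of an exon end.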

How the data were processed

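Total RNA of 9 brain slices, 3 per group, was sequenced after depletion of ribosomal RNA, with a stranded kit by the methods. The other libraries of the series were not analysed here. The authors removed reads mapping to repeats, aligned the rest to mm10 with STAR 2.5.2 and called sites with SAILOR. The site lists are marked as filtered for SNPs, but the variant set used for mouse was not given in the sources used here. In the deposited lists of sites each position has its count of edited and of covering reads, its fraction edited and a confidence score. The deposited FLARE lists give a score and the read depth as a signal, with other values such as merged p-values. FLARE used a false discovery rate of 0.1 and merged windows within 15 nt. No value is normalised, and the sequenced depth per library was not given in the sources used here.

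The study's filter (score over 0.5, fraction under 0.8) left 159087 to 281314 sites per library with 193252 to 339567 edited reads and a median cover of 16 to 17. Only sites with an edited read are listed. All kept sites were a C on their strand of GRCm38. Host genes came from GENCODE M21. Edited reads per region and per gene were tested with edgeR 4.0.16 (quasi-likelihood, TMM, filterByExpr, Benjamini-Hochberg) on R 4.3.3, after tests on simulated data, with DESeq2 1.42.0 as an alternative. Buffer-only libraries were left out of every test except an alternative fit of all 9 libraries. Single values were tested by exact permutation (smallest p 0.1 for 3 against 3, 0.03125 for 6 sign flips). Intervals cover counting error only. The members and the gene lists were chosen with earlier results of these data known, and the copy counts were added after seeing the data. Named members were the 10 with the most edited reads in the 6 libraries with enzyme, the 6 with the highest fraction at 60 or more covering reads (1 per gene) and the 3 unrecovered ones with the most buffer-only reads. Named genes were the 10 with the most members, the 6 called hosts with the smallest p, the RBFOX genes and leading hosts of each list; other genes were named after their values were seen. Markers of astrocytes (8 of 8) and oligodendrocytes (8 of 9) had sites in all 9 libraries. Some genes that the naming rule selects are not reported here.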

Additional observations from a re-analysis of the deposited data

How the results depend on the processing

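Recovery of members, CPM of edited reads, and the excess of recovery over other clusters kept their direction under every alternative run. With every listed site, the RBFOX2-INSCRIBE minus enzyme-only difference was 0.0213 points for the pooled fraction and 0.0671 points for A or U before the C, member minus other median cover was -12.7, and exon minus intron was -5.38 points for the pooled fraction and 2.05 points for sites with 2 or more edited reads. At 20 or more covering reads, the last 2 were 0.462 and -2.54 points (exact sign-flip p = 0.09375 and 0.1875). Without the ribosomal RNA locus, chosen after seeing the data, the pooled fraction differed by 0.0826 points between groups with enzyme, 0.0016 points between member and other sites and -4.95 points between exons and introns. The causes were not tested.

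Leaving out 1 library at a time gave -1.52 to -0.574 points for recovery, -8723 to -1990 CPM, -0.208 to -0.0692 points for the pooled fraction and -1.60 to 0.645 points for A or U between the groups with enzyme. Member minus other sites gave 23.3 to 24.7 reads of cover, 3.70 to 3.79 points of fraction, -9.12 to -7.98 for A or U, 27.4 to 28.8 for 2 or more edited reads, 4.38 to 4.69 for G after the C, and 18.7 to 19.2 for recovery. Exon minus intron gave 18.8 to 19.7 reads, -0.856 to -0.543, -6.02 to -4.91, -5.62 to -4.22, 5.95 to 6.398 and, for recovery, -1.29 to 1.38 points (1.38 without RBFOX2-INSCRIBE replicate 1 and 0.825 without replicate 2). The contrast of exon minus intron recovery between groups gave -9.50 to -5.73. With 5 libraries a sign-flip p cannot go below 0.0625, so the calls within libraries are lost by construction.

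Called regions numbered 0 without a filter on low counts, 34 with every listed site (8 with members) and 14 to 26 with 1 library left out (0 to 1 with members). Called genes numbered 34 with DESeq2, 165 of 7397 with every listed site (50 of 1268 hosts, 3.94%) and 109 of 6009 with a replicate block (33 of 1190 hosts, 2.77%). The block changed no call of member regions. With 1 library left out, 30 to 77 of 6514 to 6578 genes were called, with 8 to 18 hosts (0.652% to 1.45% of hosts tested). Same-numbered RBFOX2-INSCRIBE and enzyme-only replicates correlated at 0.031, 0.041 and -0.016 over 3223 genes, and unlike-numbered ones at -0.076 to 0.045. Values this weak show no pairing by number and cannot decide whether slices were paired.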

Other observations

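Members on the Y chromosome were found although the mice are given as female. The 4 members lay between positions 90760900 and 90795195, near the end of the chromosome, where it shares sequence with the X chromosome, and 2 of them were in all 6 libraries. The region of Gm47283 had 24, 31 and 29 edited reads in RBFOX2-INSCRIBE replicates, 18, 13 and 17 in enzyme-only replicates and 29, 16 and 16 in buffer-only replicates. Its edgeR log2 fold change of RBFOX2-INSCRIBE over enzyme-only was 0.65 ± 0.28 (SE, adjusted p = 0.187). No site was listed in Ddx3y, Uty, Eif2s3y or Kdm5d, which lie on the Y chromosome outside that stretch, in any of the 9 libraries.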
